A study of Homo sapiens with 6 samples.

Results

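Integrins and the proteins that tie them to actin were followed through 48 h of vitamin C in A2058 cells, a cell line from metastatic melanoma. The group held 41 genes taken by gene symbol from the 60675 genes of the count table, 21 coding for integrin chains and 20 for cytoplasmic proteins of focal adhesions. Of these, 38 passed the filter on low counts, as did 16353 genes in all. The measured values of the genes were not used by the rule that chose them, but the group was drawn up with earlier results of these data known.

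Integrins are receptors made of an alpha and a beta chain that span the plasma membrane. The pairing of the chains sets the ligand, so that some pairs hold collagens, others laminins, and others the RGD motif of fibronectin, vitronectin and the latent form of TGF-beta. Inside the cell, talins and kindlins bind the beta tails and switch the receptors on, vinculin and the ILK, PINCH and parvin complex link them to actin, and focal adhesion kinase and SRC family kinases signal from them. In melanoma, a rise of the beta3 chain is a known feature of cells that have grown into the dermis.

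The question was how the transcriptome of a metastatic melanoma line answers to vitamin C, which was measured by sequencing of ribosomal RNA depleted total RNA. There were 3 libraries of cells treated with vitamin C (L-ascorbic acid; 100 µM for 48 h in the sample labels) and 3 of control cells in medium without vitamin C. The authors' methods give L-ascorbic acid, with the same dose and time as the sample labels. Only the protocol text attached to all 6 samples differs, naming 50 µM sodium ascorbate instead. Cells were grown in 6-well plates, medium was renewed daily before each treatment, and nothing in the labels ties a library to a separate passage, so that p-values measure the spread between these 6 samples of 1 cell line. Because RNA was bulk, fewer cells with a transcript and less transcript per cell cannot be told apart.

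Library totals ran from 16248869 to 41884588 counts in the control group and from 20944956 to 32549362 with vitamin C, and the integrin and focal adhesion genes together took 0.627 to 0.646% of the counts of a library. Along the first principal component (42.6% of the variance) the 3 control libraries lay apart from the 3 vitamin C libraries. Vitamin C 3 was at 32.5 on it, against 14.3 and 15.3 for vitamin C 1 and vitamin C 2. On the second component (21.0%) vitamin C 3 was at -22.5, against 17.5 and 14.5, while the controls ran from -16.1 to 9.81. Melanocytic markers were present, all 9 of 9 being tested, with a sum of 2565 to 2677 CPM (counts scaled to the total of the library) in controls and 2390 to 2507 CPM with vitamin C. Of that list 4 genes were called higher and 1 lower. MLANA was at 1.54 CPM in controls and 15.4 CPM with vitamin C and PMEL at 89.2 and 148 CPM, both among those higher, and DCT was the lower one. Fibroblast markers summed to 57.2 to 65.3 CPM in controls and 95.3 to 111 CPM with vitamin C, most of it LUM, which was called higher. Markers of platelets and endothelium summed to 7.82 to 8.60 and 15.8 to 16.9 CPM, with KDR called higher. The sums of epithelial markers were 63.1 to 67.4 and 56.1 to 58.6 CPM, with KRT18 called lower, and those of white blood cell markers 8.62 to 10.1 and 6.35 to 6.50 CPM, with LYZ called lower and 8 of 10 markers at 10 counts or fewer in either group. The part of these marker lists in the results for integrins was not tested.

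Vitamin C moved a set of integrin chains by small amounts in both directions while the dominant beta chain, ITGB1, stayed within the spread of the libraries. The chains ITGA1, ITGA3, ITGA4, ITGA5 and ITGB3 rose by 15.0 to 26.6%, and ITGA6, ITGA10, ITGB5 and ITGB8 fell by 11.9 to 27.2%. Among the cytoplasmic proteins, the kindlin FERMT2 rose by 21.6% and the kindlin FERMT1, at a low level, fell by 51.8%. No talin, tensin, parvin, adaptor or kinase was called. A gene was called where the adjusted p of edgeR's quasi-likelihood test, with Benjamini-Hochberg adjustment over all 16353 genes, was under 0.05. By that rule 6 of the 38 tested genes of the group were higher and 5 lower, against 6.09% higher and 5.09% lower among all genes tested. This was 28.9% of the group and 11.2% of all genes. The median log2 fold change of the group was 0.01, against -0.00 over all genes, so the calls did not go 1 way. Levels in the vitamin C libraries lay wholly above those of the controls for 11 genes of the group and wholly below for 8, patterns shown by 15.6% and 14.9% of all genes tested.

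**Figure D1:**
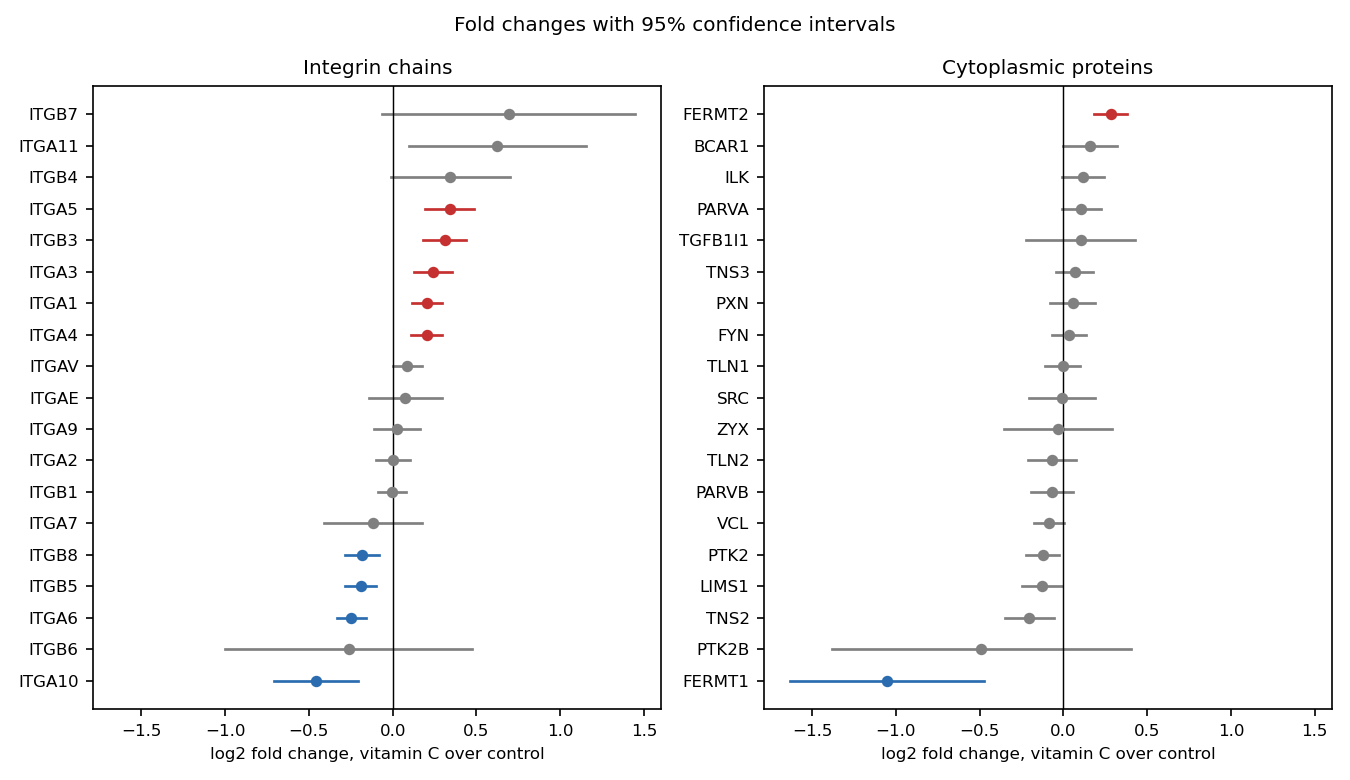
Log2 fold change (vitamin C over control, horizontal axis) of the 19 integrin chains and 19 cytoplasmic proteins that were tested, as points with 95% confidence intervals from edgeR (lines), red for called higher, blue for called lower and grey for not called. The 9 called chains lie on both sides of 0, and of the cytoplasmic proteins only FERMT2 and FERMT1 were called.

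The calls were spread unevenly over the group. Of the 19 integrin chains tested 9 were called, which is 47.4%, and of the 19 cytoplasmic proteins 2, which is 10.5%. Levels with vitamin C lay wholly above the controls for 7 chains and 4 cytoplasmic proteins. They lay wholly below for 4 chains and 4 cytoplasmic proteins. Among all genes tested, these shares were 15.6% and 14.9%. The chains carried more counts than the cytoplasmic proteins, with a median of 97.5 CPM (range 0.566 to 1079) against 50.2 CPM (range 0.915 to 306). When both classes were held to genes averaging 10 CPM or more, a limit chosen after the values were seen, 8 of 13 chains (61.5%) and 1 of 15 cytoplasmic proteins (6.67%) were called, against 14.3% of the 9066 genes so abundant. The difference between the classes was not tested.

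**Figure D2:**
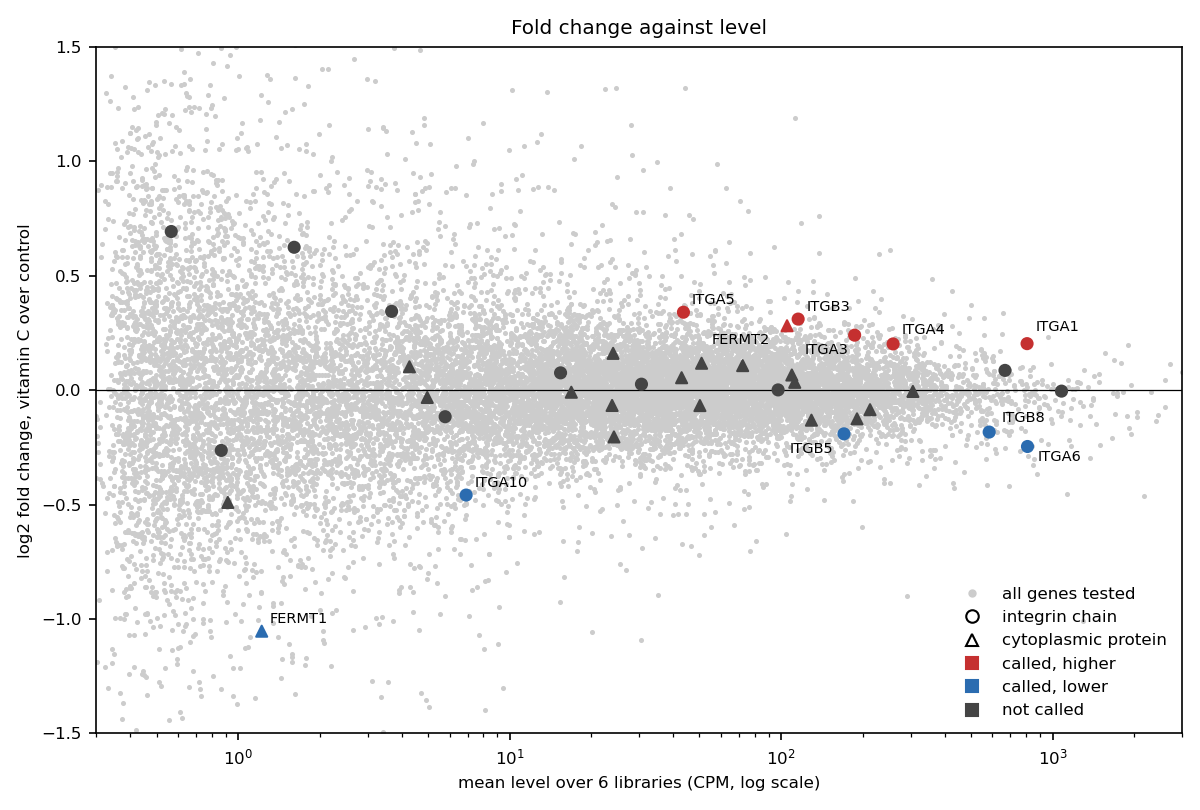
Log2 fold change (vertical axis) against the mean level over the 6 libraries (CPM, log scale, horizontal axis) for all genes tested (light grey), integrin chains (circles) and cytoplasmic proteins (triangles), red for called higher, blue for called lower and dark grey for not called, with 115 genes lying outside the axes. ITGA10 and FERMT1 are the called genes with the fewest counts, and the other 9 have log2 fold changes from -0.25 to 0.34.

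The alpha chains that bind collagen came first. ITGA1 (ENSG00000213949, chr5:52787896-52959210, + strand, here and below the whole gene in GENCODE 29 on GRCh38) codes for alpha1, which pairs with beta1 to hold collagen, above all collagen IV. Its level was 763, 750.1 and 734 CPM in the controls and 872, 886 and 830.4 CPM with vitamin C. All 3 treated libraries were above all 3 controls. The means were 749 ± 14.3 and 863 ± 28.8 CPM (SD, n = 3 each), a log2 fold change of 0.20 (SE 0.0421, edgeR adjusted p = 0.00725). ITGA10 (ENSG00000143127, chr1:145891208-145910189, - strand), the chain of another collagen receptor known from cartilage, went the other way at a low level. It stood at 8.43, 8.41 and 7.05 CPM in controls and 5.32, 6.17 and 6.06 CPM with vitamin C, without overlap. Its means of 7.97 ± 0.789 and 5.85 ± 0.462 CPM (SD, n = 3 each) gave a log2 fold change of -0.46 (SE 0.116, edgeR adjusted p = 0.0223), from 114 to 351 counts a library. The call of ITGA10 was lost with DESeq2 (adjusted p = 0.0556) and in edgeR without control 1 (adjusted p = 0.102), control 2 (0.0904) or vitamin C 1 (0.0729), and that of ITGA1 without control 3 (edgeR adjusted p = 0.0555).

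The alpha2 chain, which shares its ligands with alpha1 and lies next to it on chromosome 5, was not called. ITGA2 was at 98.3, 97.6 and 96.4 CPM in controls and at 95.3, 100.2 and 97.2 CPM with vitamin C, so the groups overlapped. The log2 fold change was 0.00 (SE 0.0472, edgeR adjusted p = 0.993), with a 95% interval of the change from -6.72 to 7.39%. ITGA11, a receptor for fibrillar collagen typical of fibroblasts, had means of 1.25 and 1.96 CPM, a log2 fold change of 0.62 and an edgeR adjusted p of 0.124.

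Among the chains of laminin receptors, the abundant alpha6 fell and the less abundant alpha3 rose. ITGA6 (ENSG00000091409, chr2:172427354-172506282, + strand), which joins beta1 or beta4, stood at 875, 878 and 879.6 CPM in controls and at 736, 722 and 762 CPM with vitamin C. The gap between the groups was wider than the spread within either, which was larger with vitamin C. From 878 ± 2.32 to 740.0 ± 20.1 CPM (SD, n = 3 each), the log2 fold change was -0.25 (SE 0.0402, edgeR adjusted p = 0.00147), with the smallest adjusted p of the group. ITGA3 (ENSG00000005884, chr17:50055968-50090481, + strand), whose product pairs with beta1, was at 182, 168 and 163 CPM in controls and at 193, 202 and 212 CPM with vitamin C. Here too the groups did not overlap, though the highest control and the lowest treated library lay close together. The means were 171 ± 9.94 and 202 ± 9.79 CPM (SD, n = 3 each), a log2 fold change of 0.24 (SE 0.0537, edgeR adjusted p = 0.0112). The call of ITGA3 was lost without control 2 (edgeR adjusted p = 0.0653) or control 3 (0.0726). The muscle chain ITGA7, the remaining laminin receptor, was at 6.04 and 5.52 CPM with a log2 fold change of -0.12 (edgeR adjusted p = 0.649).

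Of the RGD receptors, ITGA5 (ENSG00000161638, chr12:54395261-54419460, - strand) codes for alpha5, the main fibronectin receptor together with beta1. Its level was 41.1, 39.2 and 35.0 CPM in controls and 47.9, 51.3 and 47.5 CPM with vitamin C. Every treated library exceeded every control. With means of 38.4 ± 3.13 and 48.9 ± 2.08 CPM (SD, n = 3 each), ITGA5 had a log2 fold change of 0.34 (SE 0.0679, edgeR adjusted p = 0.00562), the highest among the genes called higher. The alphaV chain, ITGAV, partner of several beta chains, was at 641, 658 and 645 CPM in controls and at 685, 679 and 701 CPM with vitamin C. Its groups did not overlap, yet it was not called (log2 fold change 0.09, SE 0.0398, edgeR adjusted p = 0.190). Its 95% interval ran from 0.0603 to 12.7%. The remaining RGD chain, ITGA8, was under the filter with 2, 5 and 2 counts in controls and 3, 2 and 6 counts with vitamin C.

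ITGA4 (ENSG00000115232, chr2:181457202-181536187, + strand) codes for alpha4, the chain with which leukocytes and melanoma cells bind VCAM1 and fibronectin. It was at 242, 241 and 238 CPM in controls and at 282, 282 and 267 CPM with vitamin C. All treated libraries lay above the narrow range of the controls. Its means rose from 241 ± 2.34 to 277 ± 8.75 CPM (SD, n = 3 each), a log2 fold change of 0.20 (SE 0.0433, edgeR adjusted p = 0.00881), a call lost without control 3 (edgeR adjusted p = 0.0555). Its relative ITGA9 was at 30.4 and 30.8 CPM (log2 fold change 0.03, edgeR adjusted p = 0.850), and ITGAE, the E-cadherin receptor of intraepithelial lymphocytes, at 14.9 and 15.8 CPM (0.08, adjusted p = 0.699).

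The beta chains divided in the same way. ITGB1 (ENSG00000150093, chr10:32900319-33005792, - strand), the shared partner of most alpha chains, was at 1089, 1068 and 1086 CPM in controls and at 1068, 1068 and 1098 CPM with vitamin C. The groups overlapped. Its log2 fold change was -0.00 (SE 0.0387, edgeR adjusted p = 0.966), and the 95% interval of the change, -5.89 to 5.65%, left out shifts of the size seen for the called chains. ITGB3 (ENSG00000259207, chr17:47253846-47311816, + strand), which with alphaV forms the vitronectin receptor, was at 96.5, 111 and 102 CPM in controls and at 132, 131 and 121 CPM with vitamin C. No control reached the level of a treated library. The means were 103 ± 7.61 and 128 ± 5.97 CPM (SD, n = 3 each), a log2 fold change of 0.31 (SE 0.0595, edgeR adjusted p = 0.00430). In the annotation, 51.6% of the exon bases of ITGB3 are shared with AC068234.1 on the same strand, a gene listed with 0 counts in all 6 libraries.

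ITGB5 and ITGB8, which also pair with alphaV, fell. ITGB5 (ENSG00000082781, chr3:124761948-124901418, - strand), also a vitronectin receptor chain, was at 184, 182 and 179 CPM in controls and at 160.3, 155 and 162 CPM with vitamin C, with a wide gap between the groups. From 182 ± 2.81 to 159 ± 3.77 CPM (SD, n = 3 each), its log2 fold change was -0.19 (SE 0.0435, edgeR adjusted p = 0.0127). ITGB8 (ENSG00000105855, chr7:20330702-20415754, + strand), with which alphaV activates latent TGF-beta, was at 614, 635 and 614 CPM in controls and at 567, 559 and 516 CPM with vitamin C. Again no library of 1 group fell within the other. The means of 621 ± 12.2 and 547 ± 27.5 CPM (SD, n = 3 each) gave a log2 fold change of -0.18 (SE 0.0460, edgeR adjusted p = 0.0213). Neither call held without control 1 or control 2, where the edgeR adjusted p of ITGB5 was 0.0610 and 0.0625 and that of ITGB8 0.0578 and 0.103. ITGB5 was also lost without vitamin C 2 (edgeR adjusted p = 0.0662) and ITGB8 without control 3 (0.0757).

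The remaining beta chains were low. ITGB4, the hemidesmosome partner of alpha6, was at 3.27 and 4.07 CPM (log2 fold change 0.34, edgeR adjusted p = 0.210). ITGB6, an epithelial partner of alphaV, was at 0.945 and 0.786 CPM (log2 fold change -0.26, edgeR adjusted p = 0.689). ITGB7, the leukocyte partner of alpha4 and alphaE, was at 0.430 and 0.702 CPM (log2 fold change 0.69, edgeR adjusted p = 0.236), and 42.1% of its exon bases overlap ZNF740 on the opposite strand, which matters where the counting ignored strand. ITGB2, the leukocyte chain, did not pass the filter, with 7, 5 and 2 counts in controls and 3, 6 and 3 counts with vitamin C.

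**Figure D3:**
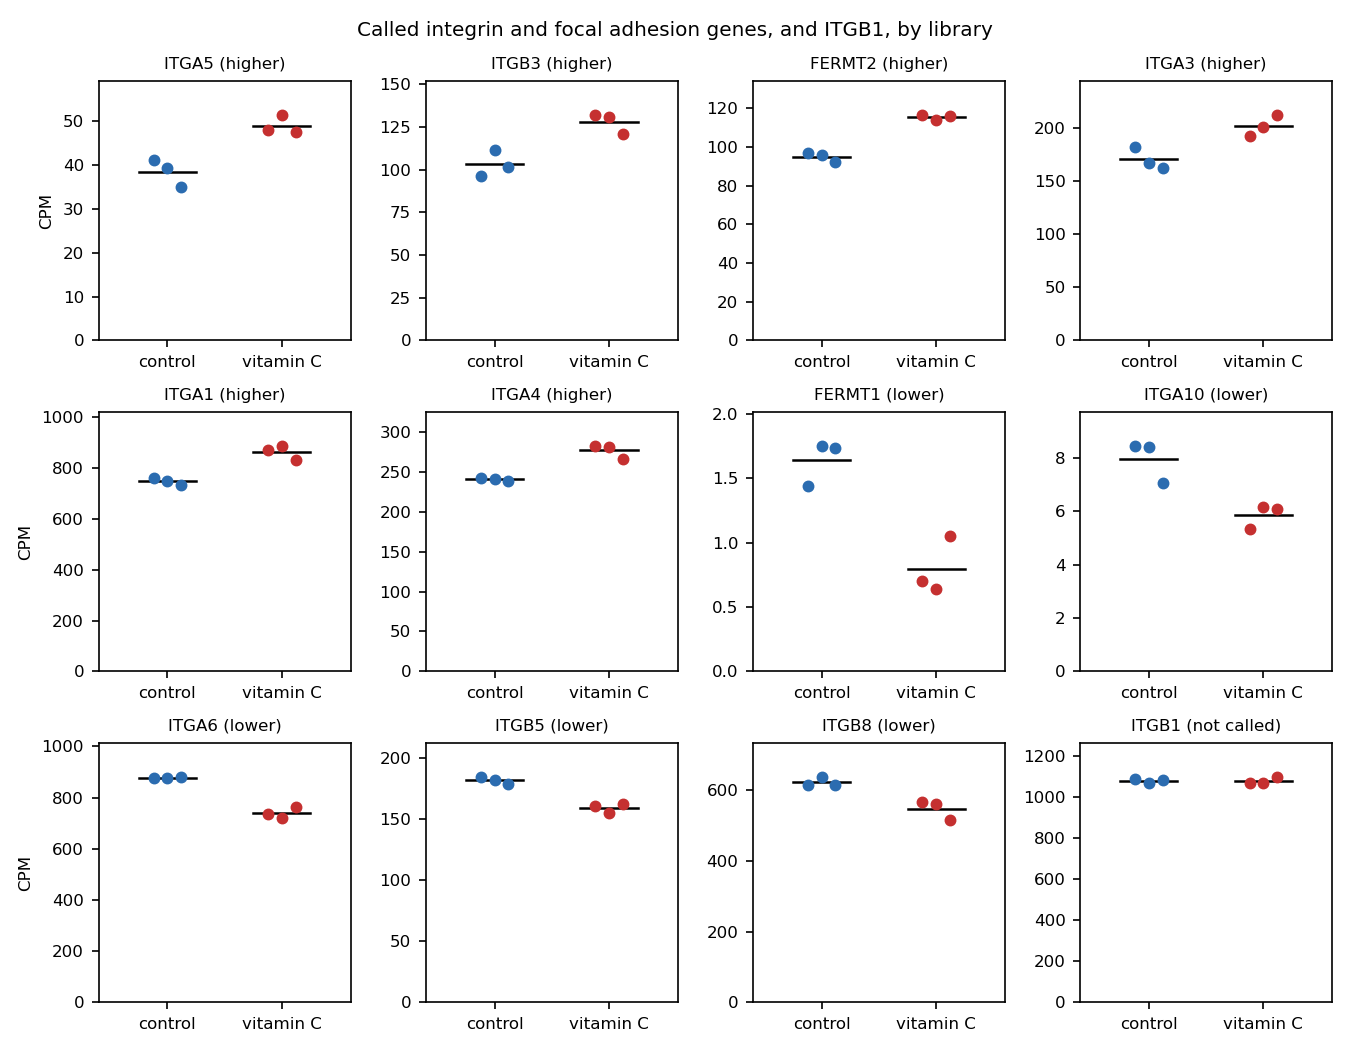
Level in CPM (vertical axes, each from 0) of the 11 called genes and of ITGB1 in the 3 control libraries (blue) and 3 vitamin C libraries (red), with the group mean as a black line. In each of the 11 called genes no control lies within the range of the treated libraries, whereas the ITGB1 groups overlap, with all 6 libraries between 1068 and 1098 CPM.

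Scaled by exon length, as CPM per kilobase of exon (RPKM), transcript levels can be set side by side between genes, though only roughly. The length merges all annotated exons of a gene, and the order and shares below rest on it. In CPM, without length, ITGA1 (749 in controls) was above ITGAV (648). The alpha chains led with ITGA6 at 134 RPKM in controls, followed by ITGAV at 78.9, ITGA1 at 40.3, ITGA4 at 30.4, ITGA3 at 17.4, ITGA2 at 12.3 and ITGA5 at 5.07 RPKM. This order was the same with vitamin C, at 113, 83.8, 46.5, 35.0, 20.6, 12.3 and 6.45 RPKM. The sum over the 13 alpha chains was 327 ± 2.27 RPKM in controls and 326 ± 2.16 RPKM with vitamin C, and that over the 8 beta chains 273 ± 0.522 and 270.2 ± 0.816 RPKM (SD, n = 3 each). The composition moved more than these sums did. ITGA6 made up 41.1 ± 0.381% of the alpha chain RPKM in controls and 34.7 ± 0.749% with vitamin C, while ITGAV went from 24.1 to 25.7%, ITGA1 from 12.3 to 14.3%, ITGA4 from 9.31 to 10.7%, ITGA3 from 5.33 to 6.33% and ITGA5 from 1.55 to 1.98%. Among the beta chains the share of ITGB1 was 65.8 and 66.4%, that of ITGB8 15.0 and 13.4%, that of ITGB5 10.3 and 9.14%, and that of ITGB3 8.59 and 10.8%. These shares are descriptions of transcript levels and say nothing on which pairs form at the membrane.

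**Figure D4:**
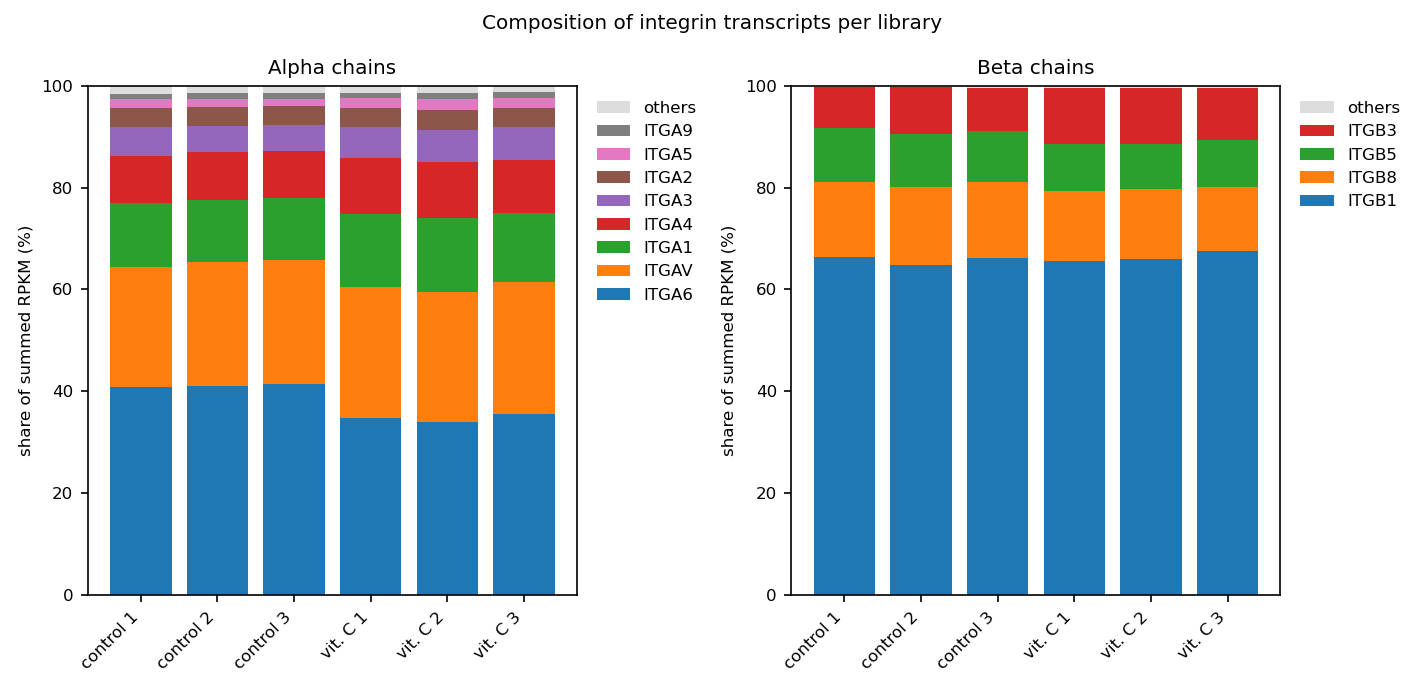
Share (%) of the summed RPKM of the 13 alpha chains (left) and 8 beta chains (right) in each of the 6 libraries, with chains under 1% in controls joined as others. The lowest alpha segment, ITGA6, spans 40.8 to 41.5% in the controls and 34.0 to 35.5% with vitamin C, while the ITGB1 segment spans 64.8 to 67.6% over all libraries.

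Set apart from ITGB1, the 4 beta chains that pair with alphaV changed in their proportions. ITGB3 made up 25.3 ± 1.22% of their summed RPKM in controls and 32.3 ± 0.582% with vitamin C (SD, n = 3 each). ITGB8 went from 44.2 ± 0.318 to 40.1 ± 0.814% and ITGB5 from 30.4 ± 0.890 to 27.4 ± 1.32%. ITGB6 was at 0.218 and 0.187%. Per length, ITGB3 was above ITGB5 in each of the vitamin C libraries and below it in each of the controls. That order rests on the merged exon lengths, and 51.6% of the ITGB3 exon bases are shared with another gene, while in CPM, without length, ITGB3 was below ITGB5 in all 6 libraries.

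In the cytoplasm, the kindlins FERMT2 and FERMT1, which bind beta tails beside talin, were the only genes of the group called. FERMT2 (ENSG00000073712, chr14:52857268-52952435, - strand) codes for kindlin-2, the form of most adherent cells. Its level was 96.7, 95.7 and 92.2 CPM in controls and 116, 114 and 116 CPM with vitamin C. Spread within each group was small beside the gap. With means of 94.9 ± 2.37 and 115 ± 1.26 CPM (SD, n = 3 each), its log2 fold change was 0.28 (SE 0.0466, edgeR adjusted p = 0.00161). FERMT1 (ENSG00000101311, chr20:6074845-6123544, - strand), kindlin-1 of epithelial cells, was at 1.44, 1.75 and 1.73 CPM in controls and at 0.704, 0.638 and 1.05 CPM with vitamin C. The groups did not overlap, but rested on 60, 47 and 28 counts and on 18, 21 and 22 counts. From 1.64 ± 0.174 to 0.798 ± 0.221 CPM (SD, n = 3 each), its log2 fold change was -1.05 (SE 0.269, edgeR adjusted p = 0.0229). The call was lost with DESeq2 (adjusted p = 0.0610) and in edgeR without control 2 (0.0848), control 3 (0.0718), vitamin C 1 (0.0675) or vitamin C 2 (0.101). Scaled by length, FERMT2 went from 11.1 to 13.6 RPKM and FERMT1 from 0.306 to 0.149 RPKM, so FERMT2 stood far above FERMT1 in both groups.

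The talins and vinculin were not called. TLN1, the main talin, was at 314, 309.7 and 296 CPM in controls and at 323, 304 and 289 CPM with vitamin C, and its groups overlapped. Its log2 fold change was -0.01 (SE 0.0493, edgeR adjusted p = 0.964; 95% interval of the change -7.45 to 7.23%). TLN2 was at 24.4 and 23.3 CPM (log2 fold change -0.07, edgeR adjusted p = 0.586). VCL, vinculin, was at 223, 219.8 and 214 CPM in controls and at 207, 206 and 207 CPM with vitamin C, all below the controls, but its log2 fold change of -0.09 (SE 0.0421) had an edgeR adjusted p of 0.225. Tensins also tie integrins to actin. TNS3 was at 111, 107 and 103 CPM in controls and at 111, 117 and 108 CPM with vitamin C (log2 fold change 0.07, SE 0.0515, edgeR adjusted p = 0.465). TNS2 was at 25.9 and 22.5 CPM (log2 fold change -0.20, edgeR adjusted p = 0.0684), and TNS1 was under the filter with 14, 4 and 2 counts in controls and 1, 2 and 5 counts with vitamin C.

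No gene of the ILK, PINCH and parvin complex was called, and its log2 fold changes lay between -0.13 and 0.12. ILK, the pseudokinase at its centre, was at 51.1, 48.6 and 46.7 CPM in controls and at 51.5, 54.7 and 53.0 CPM with vitamin C (log2 fold change 0.12, SE 0.0577, edgeR adjusted p = 0.220), with 68.1% of its exon bases overlapping TAF10 on the opposite strand (log2 fold change of TAF10 -0.04). LIMS1, which codes for PINCH1, was at 130.1, 137 and 138 CPM in controls and at 133, 121 and 116 CPM with vitamin C. The groups overlapped, and the log2 fold change of -0.13 (SE 0.0554, edgeR adjusted p = 0.152) was called lower only without vitamin C 1 (edgeR adjusted p = 0.0494). PARVA, alpha-parvin, was at 68.7, 68.8 and 71.0 CPM in controls and at 78.7, 73.6 and 72.1 CPM with vitamin C (log2 fold change 0.11, SE 0.0533, edgeR adjusted p = 0.227). PARVB, beta-parvin, was at 50.0, 53.4 and 50.7 CPM in controls and at 48.8, 47.0 and 51.5 CPM with vitamin C (log2 fold change -0.07, SE 0.0586, edgeR adjusted p = 0.524).

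Nor was any adaptor or kinase called. The kinase PTK2, focal adhesion kinase, came closest, at 194, 204 and 199 CPM in controls and 185, 184 and 177 CPM with vitamin C. All treated libraries were below the controls, with a log2 fold change of -0.13 (SE 0.0445, edgeR adjusted p = 0.0900). FYN, a SRC family kinase, was at 110.3, 109 and 114 CPM in controls and at 111, 117 and 112 CPM with vitamin C (log2 fold change 0.03, SE 0.0477, edgeR adjusted p = 0.712). SRC itself was at 16.9 and 16.8 CPM (log2 fold change -0.01, edgeR adjusted p = 0.969). PTK2B, the relative of PTK2, was near the filter at 1.07 and 0.763 CPM (log2 fold change -0.49, edgeR adjusted p = 0.510). Of the adaptors, which recruit signalling proteins to adhesions, paxillin (PXN) was at 42.2 and 43.8 CPM (0.05, edgeR adjusted p = 0.638) and BCAR1, p130Cas, at 22.6 and 25.4 CPM (0.16, edgeR adjusted p = 0.195). ZYX, zyxin, was at 4.98 and 4.96 CPM (-0.03, edgeR adjusted p = 0.926) and TGFB1I1, the paxillin relative HIC-5, at 4.12 and 4.43 CPM (0.10, edgeR adjusted p = 0.733).

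Vitamin C is a cofactor of the TET enzymes, which act on methylated cytosines at CpG sites, and promoters differ widely in how many such sites they hold. The promoter bases of 4 called genes are shown for this reason, all with a single RefSeq start site. ITGA5 and FERMT2 had the largest rise among such genes. ITGA10 and ITGB8 were the only such genes called lower, and ITGB8 fell least of all genes called lower. Each sequence is the 250 bases before the start, 5′ to 3′ on the strand of the gene, in GRCh38.p14, with every CpG in capitals. They lie at chr12:54419267-54419516 (- strand) for ITGA5, chr14:52951051-52951300 (- strand) for FERMT2, chr1:145910051-145910300 (- strand) for ITGA10 and chr7:20330650-20330899 (+ strand) for ITGB8. In GENCODE 29 each of these genes begins upstream of the RefSeq start, so that the FERMT2 window lies within the gene as a whole and the others in part.
ITGA5: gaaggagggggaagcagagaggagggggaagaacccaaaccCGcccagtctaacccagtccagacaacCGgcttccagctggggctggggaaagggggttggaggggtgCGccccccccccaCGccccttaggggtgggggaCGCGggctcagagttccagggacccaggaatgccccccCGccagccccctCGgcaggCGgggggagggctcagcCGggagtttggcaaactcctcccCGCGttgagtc
FERMT2: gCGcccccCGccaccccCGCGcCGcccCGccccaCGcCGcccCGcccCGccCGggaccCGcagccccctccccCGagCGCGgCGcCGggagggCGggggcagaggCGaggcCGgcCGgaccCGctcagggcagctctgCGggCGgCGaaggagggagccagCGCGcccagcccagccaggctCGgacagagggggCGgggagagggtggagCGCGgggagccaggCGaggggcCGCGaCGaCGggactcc
ITGA10: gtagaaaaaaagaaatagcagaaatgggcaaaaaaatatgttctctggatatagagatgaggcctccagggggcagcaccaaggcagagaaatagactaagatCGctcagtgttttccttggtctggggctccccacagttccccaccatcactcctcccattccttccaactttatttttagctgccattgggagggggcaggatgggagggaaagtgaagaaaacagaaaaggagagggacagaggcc
ITGB8: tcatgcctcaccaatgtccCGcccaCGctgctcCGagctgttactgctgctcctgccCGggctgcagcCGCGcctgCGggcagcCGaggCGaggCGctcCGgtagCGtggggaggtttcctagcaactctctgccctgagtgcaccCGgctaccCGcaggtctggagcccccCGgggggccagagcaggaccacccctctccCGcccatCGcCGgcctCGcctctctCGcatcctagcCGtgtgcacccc

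The 4 promoters hold 12 CpG (ITGA5), 36 CpG (FERMT2), 1 CpG (ITGA10) and 21 CpG (ITGB8), against a median of 11 and quartiles of 3 and 23 over the 35116 RefSeq windows of this length. Windows were found for 30 of the 41 genes and 8 of the 11 called ones, not for ITGA3, ITGB3 and FERMT1. In the richest window of each gene there were 12 to 36 CpG (median 20.5) for 4 genes called higher, 1 to 30 (median 22) for 4 called lower and 0 to 45 (median 26.5) for 20 not called. Searched on both strands, the GC box GGGCGG, present in 42.6% of all windows, was found in those of ITGA5, FERMT2 and ITGB8, and the letters CATTCC of TEAD sites, in 11.9% of all windows, in those of ITGA5 and ITGA10. The AP-1 letters TGANTCA (6.57% of all windows) and the E-box CATGTG (9.42%) were in none of the 4. Methylation was not measured in these samples.

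Beyond the group, 93 further genes of focal adhesions were followed in the same fit. Of these 80 were tested, 9 higher and 4 lower, which is 16.2% and nearer to the 11.2% of all genes, with a median log2 fold change of 0.02. The 4 with the smallest p among those higher began with MYLK, myosin light chain kinase, at 46.4 ± 2.60 and 66.4 ± 0.952 CPM (SD, n = 3 each; log2 fold change 0.51, edgeR adjusted p = 7.9e-05). FERMT3, kindlin-3 of blood cells, was at 1.63 ± 0.192 and 4.31 ± 0.450 CPM (log2 fold change 1.36, edgeR adjusted p = 1.9e-04). The 3 kindlins were thus called in unlike directions. LPXN, a paxillin relative, went from 19.1 to 28.7 CPM (0.57, edgeR adjusted p = 2.1e-04), and NEXN, an actin binding protein, from 9.17 to 12.9 CPM (0.50, edgeR adjusted p = 0.00634). Among the lower genes were NEDD9, a p130Cas relative known from metastatic melanoma, from 173 to 140.3 CPM (log2 fold change -0.30, edgeR adjusted p = 6.4e-04), EVL of the Ena/VASP family from 3.03 to 1.56 CPM (-0.96, adjusted p = 0.00329) and the actin crosslinker ACTN4 from 323 to 277 CPM (-0.22, adjusted p = 0.0412). Without control 2 the calls of this list fell to 7 and without control 3 to 8.

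Among 50 integrin ligands, 42 were tested, 9 higher and 10 lower, which is 45.2% against 11.2% of all genes, with a median log2 fold change of -0.10. Ligands with an RGD or related site held most of these, with 11 of 16 tested called. Of the collagens 4 of 9 were called and of the cell surface ligands 3 of 7, while 1 of 10 laminin chains was called. The difference between these classes of ligand was not tested. FBN2 and FBN1, the fibrillins of elastic microfibrils, went from 73.8 to 114 CPM (log2 fold change 0.63, edgeR adjusted p = 2.3e-05) and from 42.3 to 58.4 CPM (0.46, adjusted p = 1.1e-04). POSTN, periostin, went from 1.02 to 2.98 CPM (1.63, edgeR adjusted p = 7.9e-04) and EDIL3, a ligand of alphaV integrins, from 18.6 to 25.8 CPM (0.47, adjusted p = 8.2e-04). Lower were FBLN5, fibulin-5, from 28.8 to 18.5 CPM (-0.64, edgeR adjusted p = 5.6e-05), the basement membrane chains COL4A1 from 384 to 297 CPM (-0.37, adjusted p = 1.65e-04) and LAMA1 from 409 to 323 CPM (-0.34, adjusted p = 2.4e-04), and SPP1, osteopontin, from 425 to 346 CPM (-0.30, adjusted p = 4.8e-04). COL4A1 is thus among the lower genes while ITGA1, a chain of its receptor, was higher, and LAMA1 is lower as ITGA6 is. Other genes did not follow these pairs. ITGA3, also a laminin receptor chain, was higher, ITGA2 was not called, and LAMA1 was the only laminin chain called. A link between receptor and ligand was not tested.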

How the data were processed

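Total RNA of 6 wells of A2058 cells was depleted of ribosomal RNA and sequenced as paired-end reads. The authors aligned reads with STAR, counted them per gene with HTSeq against GENCODE v19 and deposited raw counts, whereas Trim Galore, STAR, CASAVA 1.4 and the build hg38 stand in the submitters' processing notes. The strand setting of the counting was not given in the sources used here. The deposited single-sample tables differed from the joint table in 0 cells. Genes were named by GENCODE 29, which held 57055 of the 60675 identifiers.

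Groups were taken from the sample labels. Counts were filtered with filterByExpr, scaled by TMM and tested with edgeR 4.0.16 in R 4.3.3 (glmQLFit and glmQLFTest on the trended dispersion, no covariate, 16353 genes, Benjamini-Hochberg). The SE is the log2 fold change divided by the square root of F. DESeq2 1.42.0, limma-voom (limma 3.58.1), other scalings and filters, a replicate block and leaving out each library served as alternatives. The steps were run on simulated counts whose changes were larger than those of most called genes of the group. Recovery of changes as small as most of those called was therefore not tested. Library totals bound the precision of low genes, and intervals hold for these wells. RPKM used merged exon lengths of GENCODE 29, and genes that share exon bases with another gene are uncertain. Members and lists were chosen with earlier results of these data known. Called members and members with at least 50 CPM are given per library, other members by group means, untested members by counts, and other lists by the 4 called genes with the smallest p in each direction. Marker genes of other cell types are named by the same rule. A gene that this rule names among the other focal adhesion genes is not reported here.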

Additional observations from a re-analysis of the deposited data

How the results depend on the processing

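With 3 libraries a group the calls depended on the threshold and on single libraries. At an adjusted p under 0.01 edgeR called 6 genes of the integrin and focal adhesion group (5 higher, 1 lower), 795 genes in all and 7 of the other focal adhesion genes. Leaving out each library in turn gave 6 to 11 called genes of the group, the fewest without control 2 or control 3, with 964 to 2095 over all genes and 7 to 14 among the other focal adhesion genes. FERMT2, ITGA5, ITGA6 and ITGB3 were called under all 14 alternatives that give a value per gene, ITGA1 and ITGA4 under 13, ITGA3 under 12, ITGB5 and ITGB8 under 11, ITGA10 under 10 and FERMT1 under 9. Over the 38 tested genes and these alternatives, 486 values kept their direction and side of the threshold, 19 lost a call, 1 gained one and 25 changed sign, all 25 in genes not called in either fit. The sign changes were in ITGA2 (log2 fold change -0.0096 with upper quartile scaling, -0.0023 with DESeq2, -0.0174 to 0.0184 with a library left out), ITGB1 (0.0073 with library size alone, 0.0031 with no filter, -0.0139 to 0.0040 with a library left out), TLN1 (0.0058 with library size alone, 0.0020 with no filter, -0.0469 to 0.0358 with a library left out) and SRC (0.0034 with library size alone, -0.0962 to 0.0452 with a library left out). With a library left out, they were also in ITGA9 (-0.0050 to 0.0568), ITGB6 (-0.50 to 0.0228) and ZYX (-0.12 to 0.15). DESeq2 called 9 genes of the group and 1526 in all. Upper quartile scaling split the calls over all genes as 892 higher and 963 lower (48.1% higher, against 54.5% with TMM), and moved no median by more than 0.1 on the log2 scale. The limit of 10 CPM in the comparison of chains with cytoplasmic proteins was chosen after the values were seen. The cause of the lost calls was not tested.

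Deviations from the group means correlated at 0.123, -0.0237 and 0.0915 between libraries of the same replicate number. Control 1 and control 3 correlated best with the vitamin C library of their own number, and control 2 with vitamin C 3 (0.0764). With 3 libraries a group, such small correlations cannot decide whether the numbers mark paired samples. A fit with a replicate block called 11 genes of the group, 1913 in all, 16 other focal adhesion genes and 19 ligands.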
